A study of Bos taurus with 26 samples.

Results

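The corpus luteum of Fert+ Holstein cows, selected for high fertility, gave 7 RNA sequencing libraries, and these fell into one group of 4 and one of 3. The 4 were replicates 15, 16, 18 and 19, and the 3 were replicates 21, 23 and 24. They are 7 of the 26 libraries of the series. The members were chosen from the expression values themselves: the 4 stood apart on the first principal component of the 12 corpus luteum libraries. Every luteal difference between the 4 and the 3 is therefore given as a description with no p-value, and the word state would be only a working name for the groups. The other libraries serve as reference levels. They are 5 corpus luteum libraries of the Fert- line, selected for low fertility, 8 Fert+ endometrium libraries and 6 Fert- endometrium libraries. All cows were sampled on day 13 of the oestrous cycle. The lines are given as a genotype with no named allele, and the endometrium was a biopsy of the ipsilateral uterine horn. No label ties a library to an individual cow, so p-values measure only the spread between these samples.

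The corpus luteum forms from the follicle after ovulation and secretes progesterone, which prepares the endometrium for a conceptus. It holds large and small steroidogenic luteal cells, a dense capillary bed with endothelial cells and pericytes, fibroblasts and immune cells. In a cow that is not pregnant, prostaglandin F2 alpha from the endometrium ends its life late in the cycle. The files give genes as Ensembl IDs with no symbols, and the gene table at hand matched 0 of 24616, so no role can be stated for an ID and no marker list for a cell type could be read. In whole tissue, fewer cells of a type and less RNA per cell cannot be told apart.

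The 4 libraries held 17209398, 18008417, 17852552 and 12702533 counts in replicates 15, 16, 18 and 19. The 3 held 13578948, 12824467 and 12665680 in replicates 21, 23 and 24. Replicate 19 lay within the range of the 3, while the other members of the 4 were deeper. The means differed by 3420190 counts (exact permutation test, two-sided, p = 0.114). With only 35 possible assignments of the libraries, the smallest p this test allows is 0.0571. Between 17014 and 17325 IDs had at least 1 count in each of the 4, and between 15935 and 16238 in each of the 3. With every luteal library thinned to 11924906 counts, the lowest of the 4 still had 16660 IDs and the highest of the other 8 luteal libraries had 16500. The mean of the 4 was then 16834 ± 132 (SD, n = 4) and that of the 3 was 16000 ± 154 (SD, n = 3).

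On the first component of the 12 luteal libraries, the member of the 4 nearest to the rest was replicate 19 at 47.7, and the nearest other Fert+ library was replicate 21 at -8.19. Among the 7 Fert+ libraries alone, the first component held 55.2% of the variance. The 4 scored 27.9, 35.8, 28.5 and 34.0 there, and the 3 scored -41.5, -41.8 and -42.9. The groups were chosen on a first component, so their distance on this axis is no finding. On the first component of the 12, the 3 ran from -22.9 in replicate 23 to -8.19, with Fert- replicates 20 (-21.5) and 27 (-19.6) within that range. The second component of the 7 held 13.8% and spread the 3, with replicate 23 at -36.7 and replicate 24 at 26.4. Rank correlations between libraries over 13462 IDs, given as a description, ran from 0.983 to 0.987 within the 4 and from 0.978 to 0.986 within the 3. Between the 4 and the 3 they ran from 0.942 to 0.958. The 3 correlated with the Fert- luteal libraries at 0.934 to 0.984, and the 4 with those libraries at 0.902 to 0.950.

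**Figure D1:**
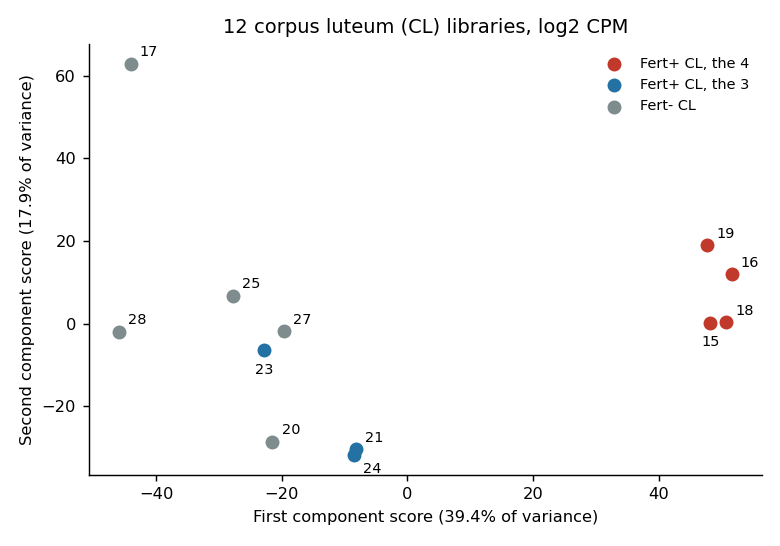
Scores of the 12 corpus luteum (CL) libraries on the first 2 principal components of log2 CPM, with each point 1 library marked by its replicate number. Fert+ replicates 15, 16, 18 and 19 lie between 47.7 and 51.6 on the first component, and all other libraries lie below 0.

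Most of the large differences ran one way. An ID was counted as higher where all 4 libraries lay above all 3 and the mean log2 CPM differed by at least 1, and as lower in the mirror case. By this rule 964 of 13462 IDs were higher in the 4, which is 7.16% of the IDs examined, and 47 were lower, which is 0.349%. Higher IDs thus made up 95.4% of those that met the rule. Nothing about the split is read from these shares, since the same values chose the libraries. Without a size limit, 3004 IDs lay higher without overlap (22.3%) and 2566 lower (19.1%). At a difference of at least 0.5 the counts were 2136 and 566, at 2 they were 244 and 5, and at 3 they were 61 and 0. A difference of at least 4, which is 16-fold, was found for 15 IDs, all higher in the 4. Over all IDs the median difference was -0.03, and 43.2% of IDs differed by less than 0.25. The smallest difference inside the rule was 1.0001 and the largest just outside it was 0.998.

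The filter on low counts bears on this tally. It asked for enough counts in at least 5 luteal libraries, the size of the smaller line, so an ID present in the 4 alone could not pass. Of the 5969 IDs with a luteal count that did not pass, 456 met the rule as higher in the 4 (7.64%) and 14 as lower (0.235%). These were scarce transcripts, with a median of 0.673 CPM in the 4 and 0.0881 CPM in the 3. With no filter the rule was met by 1388 IDs as higher and 62 as lower. Complete absence was rare: 173 IDs had a count in each of the 4 and none in the 3, and 6 IDs the reverse. At equal depth these numbers were 121 and 12. Only 2 IDs had at least 10 counts in each of the 4 and none in the 3, and 0 IDs had that many in each of the 4 and none in the other 8 luteal libraries.

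The ID with the largest difference was ENSBTAG00000013163. In the 4 its level was 19.5, 20.7, 36.2 and 55.6 CPM, in the order of replicates 15, 16, 18 and 19. In the 3 it was 0.499, 1.33 and 0.0905 CPM, in the order of replicates 21, 23 and 24. The 4 thus lay far above the 3, although they also spread widely among themselves. The mean was 33.0 CPM ± 16.9 (SD, n = 4) against 0.640 CPM ± 0.631 (SD, n = 3), a log2 difference of 5.62. Within batch 3 the log2 difference was 3.82, and at parity 4 it was 5.24. Its 5 Fert- luteal libraries ran from 0.336 to 1.52 CPM and its 14 endometrium libraries from 1.27 to 4.31 CPM, so no reference library came near the 4. The lowest value, in replicate 24, rests on 1 count.

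ENSBTAG00000002321 came next, with a log2 difference of 5.53 and a much tighter spread. In the same order, the 4 held 48.2, 52.4, 53.0 and 54.2 CPM and the 3 held 1.08, 0.798 and 1.09 CPM. These are 52.0 CPM ± 2.64 (SD, n = 4) and 0.988 CPM ± 0.165 (SD, n = 3). The Fert- luteal libraries held 0.615 to 1.58 CPM around a median of 1.27, which overlaps the 3. Endometrium lay between, at 2.79 to 6.76 CPM with a median of 4.71, above every luteal library outside the 4 and below each of the 4.

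For the higher IDs as a group, the 3 Fert+ libraries sat at the level of the Fert- line. The mean level over the 964 IDs was 3.95, 4.06, 3.92 and 4.00 log2 CPM in replicates 15, 16, 18 and 19. It was 2.28, 2.29 and 2.27 in replicates 21, 23 and 24. The Fert- luteal libraries ranged from 2.31 to 2.44 and the endometrium libraries from 2.87 to 3.06. The 4 were thus highest, endometrium was intermediate, and the remaining luteal libraries of both lines were lowest, and none of these ranges overlapped. The 3 lay just under the Fert- libraries. Choosing IDs that are high in the 4 and low in the 3 itself bears on where both lie against the other libraries. The IDs were chosen for the gap between the 4 and the 3, so that gap is no finding, and the other levels are its reference. These IDs took 3.61% ± 0.133 (SD, n = 4) of all counts in the 4, 1.08% ± 0.0406 (SD, n = 3) in the 3, and 1.03% ± 0.0721 (SD, n = 5) in the Fert- luteal libraries.

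**Figure D2:**
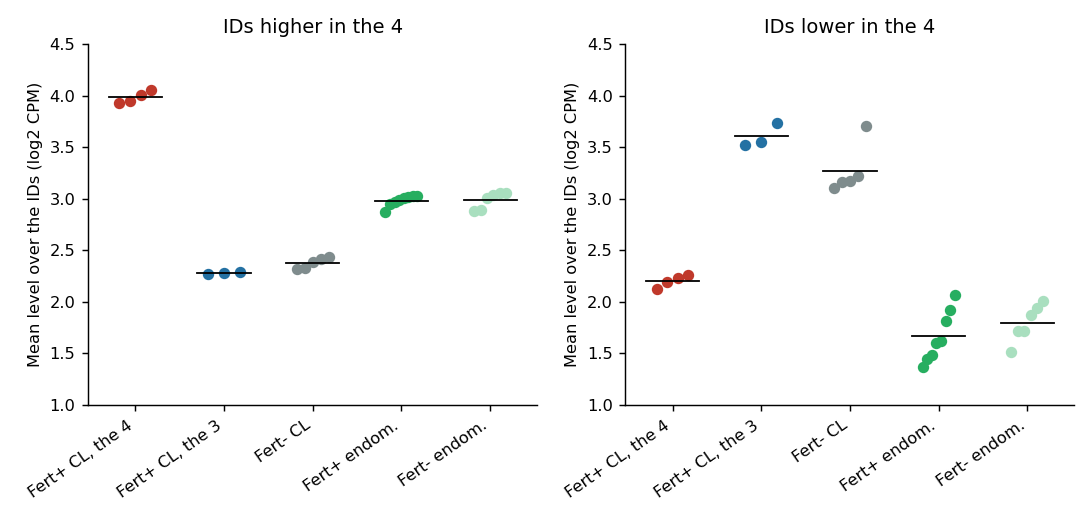
Mean level in log2 CPM over the 964 IDs higher in the 4 and over the 47 IDs lower in the 4, with each point 1 library and each bar the group mean. For the higher IDs the endometrium libraries lie at 2.87 to 3.06, between the 4 and all other corpus luteum (CL) libraries, and for the lower IDs they lie below every CL library, at 1.37 to 2.07.

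ID by ID, 927 of the 964 had a mean in the 3 within 1 log2 unit of the Fert- luteal mean (96.2%), against 97.7% of all IDs examined. Across the 964 the median difference of the 3 from Fert- was 0.01, and that of the 4 from Fert- was 1.49. The 4 lay above all 8 other luteal libraries for 834 of the 964. The rule had already placed these IDs above 3 of those 8. At any size, it held for 2220 of the 3004 IDs higher without overlap, or 16.5% of all IDs. In the other 130 of the 964, at least 1 Fert- library reached into the range of the 4. For 84 of these it was a single library, and for 3 it was all 5. Fert- replicates 28 and 17 reached the lowest of the 4 most often, for 67 and 64 of the 964 IDs, and Fert- replicates 20, 25 and 27 for 23, 28 and 31. Those counts use the scaling over all 26 libraries.

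Endometrium divided the higher IDs into classes. In 577 of the 964 (59.9%) the endometrial mean lay within 1 log2 unit of the 3, against 70.3% of all IDs. In 177 (18.4%) it lay at least 1 above the 3 but still below the 4, against 1.34% of all IDs, a class that an ID can hardly enter unless the 4 stand well above the 3. In this class the median difference of the 4 from the 3 was 2.04, and the median level was 13.6 CPM in the 4, 2.65 in the 3, 2.84 in Fert- corpus luteum and 7.18 in endometrium. In another 147 IDs (15.2%, against 13.4% of all IDs) endometrium was at or above the 4, with a median of 12.5 CPM. In 63 (6.54%, against 14.9% of all IDs) it lay at least 1 below the 3, and there the median was 16.2 CPM in the 4 and 1.04 CPM in endometrium. The 4 stood above all 22 other libraries of both tissues for 538 of the 964, and over all IDs for 1150 (8.54%). The 3, which the rule had already placed below the 4 for the 964, are among those 22.

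The higher IDs spread a little more than other IDs in each group by their median SD. It was 0.18 log2 CPM in the 4, 0.25 in the 3 and 0.34 in the Fert- luteal libraries, against 0.15, 0.18 and 0.29 over all IDs. The higher IDs were also scarcer, with a median of 4.63 CPM in the 3 against 20.2 CPM over all IDs. The rule asks for no overlap, which itself bears on the spread within the 4 and the 3. In the 4, 66 of the 964 spread by more than 1 log2 unit (6.85%), against 9.52% of all IDs. In the 3, 141 did so (14.6%), against 10.5% of all IDs. Replicate 16 was the highest of the 4 most often, for 386 IDs, followed by replicate 19 for 284, replicate 18 for 159 and replicate 15 for 135. In the 3 no library dominated, with 306, 332 and 326 IDs highest in replicates 21, 23 and 24. Replicates 15 and 18, which share batch 4 and parity 3, differed over the 964 IDs by a median of -0.02, and 12 of the IDs were at least 1 higher in replicate 15, against 2.03% of all IDs. Replicates 21 and 24, of batch 1 and parity 2, differed by a median of -0.01, with 29 of the IDs at least 1 higher in replicate 21, against 2.3% of all IDs.

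Batch and parity move with the split. The 4 carried batches 4, 3, 4 and 2 with parities 3, 3, 3 and 4, and the 3 carried batches 1, 3 and 1 with parities 2, 4 and 2. No member of the 4 was of batch 1 or parity 2. Batch 3 holds 1 library of each group, and there replicate 16 was at least 1 log2 unit above replicate 23 in 862 of the 964 IDs, against 10.2% of all IDs, with a median of 1.58. Of the 47 lower IDs, 33 were at least 1 lower there, against 4.12% of all IDs. At parity 4, replicate 19 was at least 1 above replicate 23 in 837 of them, against 9.55% of all IDs, with a median of 1.55, and 31 of the 47 were at least 1 lower, against 4.06%. Replicates 16, 19 and 23 are among the libraries that chose the IDs, so all 964 are higher in both pairs by construction. These are values of 1 library a side, both with replicate 23, and test neither batch nor parity.

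Libraries of the Fert- line share both labels with members of the 4. Fert- replicates 25 and 27 are of batch 3 and parity 3, as is replicate 16. It was at least 1 higher than they were in 836 and 819 of the 964 IDs, against 11.7% and 11% of all IDs. Fert- replicate 17 is of batch 2 and parity 4, as is replicate 19, which was at least 1 higher in 750 of the 964 IDs, against 14% of all IDs. In these 3 pairs 17, 21 and 17 of the 47 lower IDs were at least 1 lower, against 4.78%, 2.93% and 8.16% of all IDs. Fert+ replicate 23 set against Fert- replicates 25 and 27 of its own batch gave 23 and 22 of the 964 IDs at least 1 higher, with medians of 0.01 and -0.07. Over all IDs the shares at least 1 higher were 2.09% and 3.37%. Fert+ replicates 21 and 24, of parity 2, were set against Fert- replicate 20, also of batch 1 but of parity 4. Each gave 23 of the 964 IDs at least 1 higher, against 2.24% and 1.9% of all IDs. Fert- replicate 28, likewise of batch 1 and parity 4, was not set against them. The Fert+ library of each pair given here helped to choose the IDs, so the counts depend on that choice. The part of batch and parity in the split was not tested.

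Size and direction changed with the level of an ID. Over IDs with a geometric mean under 1 CPM in the 12 luteal libraries, the median difference was 0.33, and 17.3% were higher by the rule. The filter bears on this bin. A scarce ID high in the 4 needed fewer further libraries to pass than one high in the 3, so the direction there is no finding. The median was 0.17 at 1 to 4 CPM, 0.05 at 4 to 16, -0.04 at 16 to 64 and -0.19 at 64 to 256. Above 256 CPM it was -0.34 over 499 IDs, of which 3 were higher and 2 lower by the rule. The 10 most abundant IDs of the 7 libraries were all lower in the 4, by 0.15 to 0.41 log2 units, and none met the rule. Of the 50 most abundant, 47 were lower in the 4 with a median of -0.34. These levels were scaled by trimmed mean of M values (TMM), with a mean factor of 1.11 in the 4 and 0.988 in the 3. That scaling lowers every ID in the 4 relative to the 3, so lower here need not mean a smaller share of counts. Scarce and abundant IDs share this scale, so their opposite directions are not separate measurements.

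**Figure D3:**
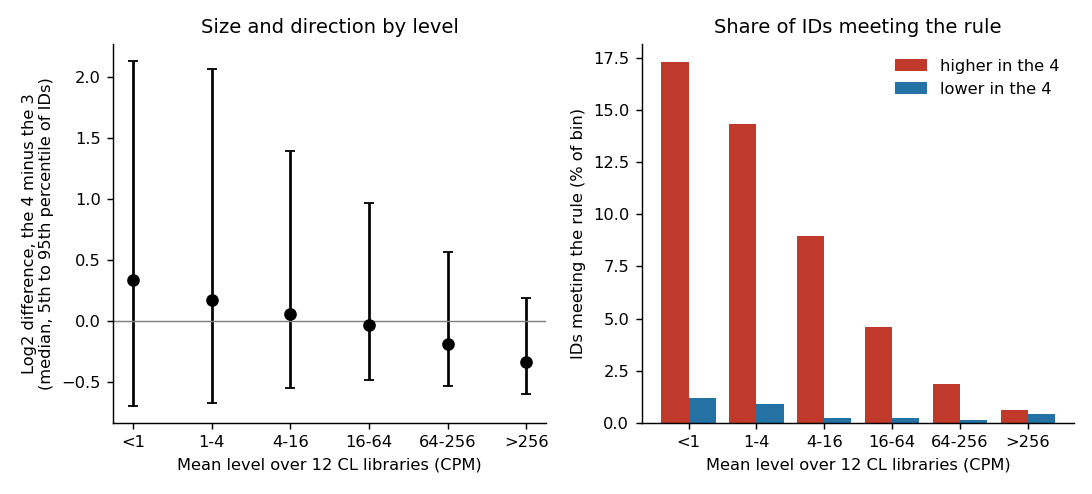
Log2 difference of the 4 minus the 3 Fert+ libraries (median with the 5th to 95th percentile of IDs) and the percentage of IDs meeting the rule, in 6 bins of geometric mean CPM over the 12 corpus luteum libraries. The median runs from 0.33 in the scarcest bin to -0.34 in the most abundant, and the share of higher IDs from 17.3% to 0.601%.

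The 47 lower IDs behaved less evenly than the higher ones. Their mean level was 2.20, 2.26, 2.13 and 2.23 log2 CPM in replicates 15, 16, 18 and 19, and 3.52, 3.74 and 3.55 in replicates 21, 23 and 24. The Fert- luteal libraries held 3.11 to 3.705, below or within the range of the 3 and above the 4. The choice of these IDs from the 4 and the 3 bears on this order too. Only 10 of the 47 lay below all 8 other luteal libraries, which include the 3 used by the rule. At any size, it held for 1382 of the 2566 IDs lower without overlap, or 10.3% of all IDs. The 4 lay below all 22 other libraries for 4 of the 47, against 3.89% of all IDs. For 8 of them at least 3 of the 5 Fert- libraries reached down to the range of the 4. The median SD was 0.53 in the 4, 0.31 in the 3 and 0.83 in Fert-, and 43 of the 47 spread by more than 1 log2 unit over the Fert- libraries, against 32.4% of all IDs. In 26 of the 47, endometrium was at least 1 below the 3 and at or below the 4 (55.3%, against 14.9% of all IDs). The count of 47 became 85, 76 or 87 without replicate 21, 23 or 24, and 41, 37 or 38 of the 47 were among them. Without replicate 15, 16, 18 or 19 the count was 57, 68, 47 or 57. The condition of no overlap is easier to meet with fewer libraries, which itself bears on these counts.

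Among IDs that met the rule as lower, ENSBTAG00000027962 had the largest difference, -2.67 on the log2 scale. The 4 held 1.91, 2.39, 1.87 and 9.93 CPM, and the 3 held 22.6, 23.5 and 15.9 CPM. Replicate 19 stood well above the others of its group, yet below each of the 3. Without replicate 19 the log2 difference was -3.20, and at parity 4, where replicate 19 is the only member of the 4, it was -1.23. In Fert+ endometrium, replicates 1, 2 and 4 were likewise low at 1.36, 1.17 and 2.13 CPM, and replicate 5 was at 10.02 CPM. Replicates 1 and 4 carry the batch and parity of luteal replicates 15 and 18, replicate 2 those of replicate 16, and replicate 5 those of replicate 19. Endometrium replicates 7, 12 and 13, with the labels of the 3, were at 10.9, 9.83 and 6.48 CPM. The highest of these 4 endometrium libraries thus carries the labels of the highest of the 4 luteal libraries, while the order of the others differed. Whether the same cows gave both tissues is not stated. The Fert- luteal libraries held 3.15 to 13.8 CPM, all below the 3.

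ENSBTAG00000000470 was at 21.2, 19.6, 17.2 and 9.21 CPM in the 4 and at 116, 93.1 and 41.5 CPM in replicates 21, 23 and 24, a log2 difference of -2.24, and -3.31 at parity 4. The Fert- luteal libraries ranged from 9.48 to 388 CPM, from as low as the 4 to above each of the 3. Endometrium was near 0 in most libraries, with a median of 0.228 CPM, but Fert+ replicate 10 held 28.8 CPM and Fert- replicate 14 held 33.9 CPM. This ID therefore varied widely outside the split as well.

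**Figure D4:**
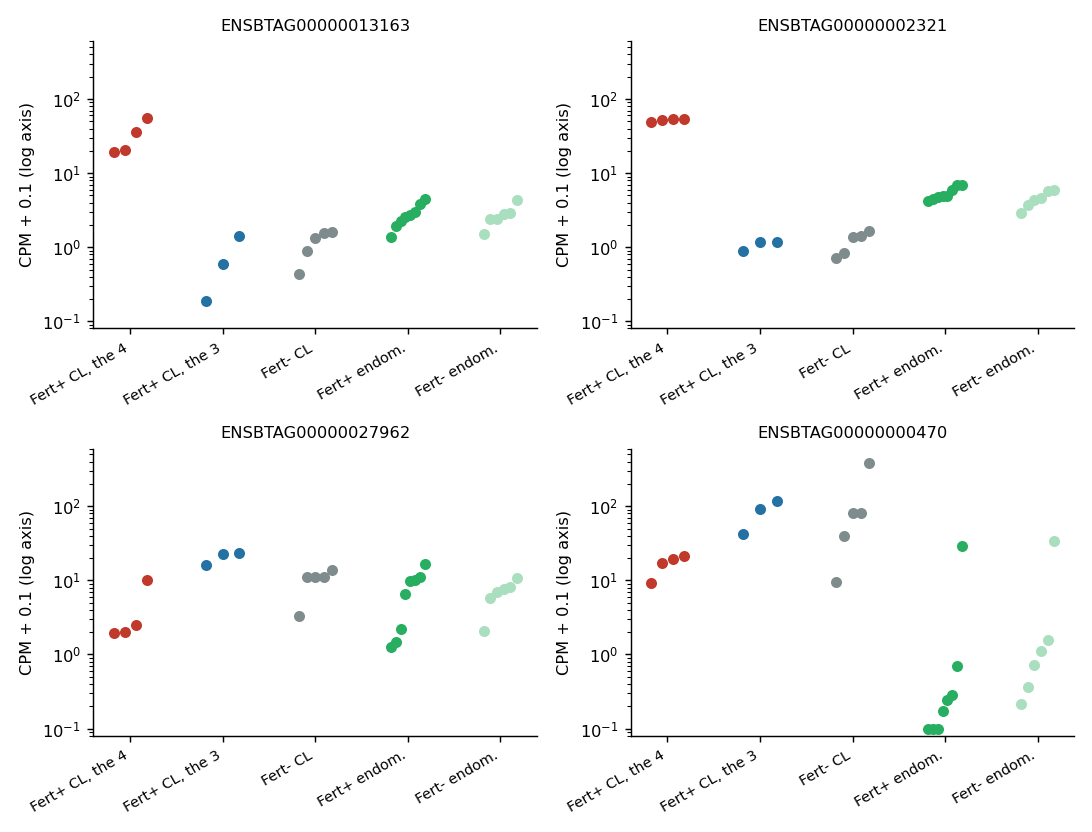
Level of the 2 IDs in each direction with the largest differences among those that met the rule with at least 10 CPM in the higher group, in CPM + 0.1 on a log axis, with each point 1 library of corpus luteum (CL) or endometrium (endom.). The upper pair lies at 19.5 to 55.6 CPM in the 4 and at no more than 6.76 CPM in any other library, while the lower pair overlaps between the 4 and the Fert- CL libraries.

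The tissue labels could not be checked against defining markers, since no ID could be named. IDs nearly restricted to one tissue were picked by those labels, after the values were seen, so their tissue contrast is no check and only their levels among the 7 libraries are described. The 20 IDs with at least 100 CPM on average in corpus luteum and an endometrial mean lower by a factor of 100 or more took 4.94%, 5.12%, 5.56% and 5.50% of counts in replicates 15, 16, 18 and 19. They took 5.15%, 4.17% and 5.70% in replicates 21, 23 and 24, so the groups overlapped. Fert- luteal libraries held 1.70% to 5.06% and endometrium libraries at most 0.0191%. None of the 20 met the rule as higher or lower. Their median difference was -0.21 after TMM scaling, while their mean share of counts was 5.28% in the 4 and 5.01% in the 3. The mirror set of 20 endometrial IDs gave 131, 197, 307 and 472 counts in the 4 and 241, 264 and 46 in the 3, where endometrium libraries held at least 93100. Of that set 6 passed the luteal filter, and 1 of these was among the 964. The counts of the 4 and the 3 overlapped for this set too.

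The endometrium libraries were not used to choose the 4 and the 3, so they allow a test. Batch and parity labels match Fert+ endometrium replicates 1, 2, 4 and 5 to the 4, and replicates 7, 12 and 13 to the 3. Fert+ endometrium replicate 10 has no luteal counterpart and stayed out. No ID passed the threshold: edgeR's quasi-likelihood test called 0 of 14256 IDs (0%) at a Benjamini-Hochberg adjusted p under 0.05, and the lowest adjusted p was 0.0960. At an unadjusted p under 0.05 there were 2037 IDs (14.3%), of which 817 were higher and 1220 lower in the libraries matching the 4, where a uniform distribution gives 713. DESeq2 called 488 IDs, 157 higher and 331 lower, and limma-voom called 0. With batch in the edgeR fit, the group effect rests on batch 3 alone, where replicate 2 is set against replicate 12. The other batches hold libraries of only 1 group. The median of replicate 2 minus replicate 12 was 0.01 over the IDs tested, and this pair does not test the 4 against the 3. Batch and parity differ between the endometrium groups and cannot be told apart from them.

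The IDs higher in the 4 luteal libraries lay close to all other IDs in endometrium as a group. Of the 964, 914 could be tested there, 0 were called, and their median log2 fold change was 0.05, against 0.01 over all IDs. An unadjusted p under 0.05 was reached by 87 of them (9.52%), below the 14.3% of all IDs, with 41 higher and 46 lower. In 81.3% the endometrial change was under 0.5 in size. Their mean level was 3.03, 3.01, 2.97 and 2.99 log2 CPM in endometrium replicates 1, 2, 4 and 5, and 2.94, 3.00 and 2.87 in replicates 7, 12 and 13. For ENSBTAG00000013163 the endometrial log2 fold change was -0.02 (SE 0.38, edgeR adjusted p = 0.987), and for ENSBTAG00000002321 it was 0.02 (SE 0.26, edgeR adjusted p = 0.984).

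The lower IDs differed from this. Of the 47, 33 could be tested in endometrium and 0 were called, but 15 lay at an unadjusted p under 0.05 (45.5%, against 14.3% of all IDs), 13 of them lower and 2 higher. Their median log2 fold change was -0.56, against 0.01 over all IDs, and 9 of the 33 were higher (27.3%, against 52.1% of all IDs). The median SE was 0.38 over the 33 and 0.20 over all IDs. The mean level over the 47 was 1.37, 1.45, 1.62 and 1.61 log2 CPM in replicates 1, 2, 4 and 5, and 1.81, 1.92 and 2.07 in replicates 7, 12 and 13. These groups did not overlap. Fert+ endometrium replicate 10, of batch 1 as replicates 7 and 13 but of parity 4, was at 1.48, inside the range of the first group. Fert- endometrium libraries with labels of the first group did not all lie there: replicate 3, with the batch and parity of replicate 5, was at 1.94, and replicates 9 and 11, with those of replicate 2, were at 1.72 and 1.52. Within batch 3, replicate 2 minus replicate 12, 1 library a side, gave a median of -0.23 over the 33 IDs, against 0.01 over all IDs. In this pair 20 of the 33 were lower, and 6883 of all 14256 IDs. For ENSBTAG00000027962 the endometrial log2 fold change was -1.28 (SE 0.71, edgeR adjusted p = 0.448).

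**Figure D5:**
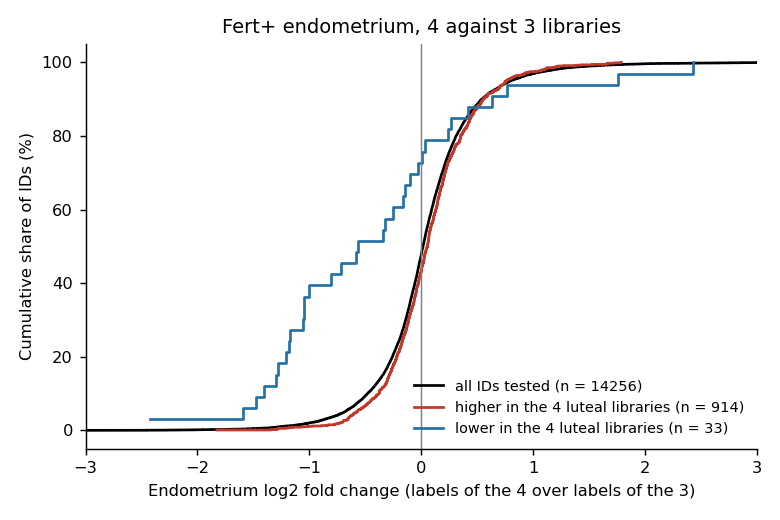
Cumulative share of IDs (%) by log2 fold change in Fert+ endometrium, the 4 libraries with the labels of the luteal 4 over the 3 libraries with the labels of the luteal 3. The curve of the 914 higher IDs runs close to that of all 14256 IDs, with medians of 0.05 and 0.01, and the curve of the 33 lower IDs lies to the left with a median of -0.56.

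Of the endometrial IDs, those ranked first by p on either side are described here, though none passed the edgeR threshold. ENSBTAG00000002080 was at 38.3, 45.5, 55.0 and 36.5 CPM in endometrium replicates 1, 2, 4 and 5, and at 126, 181 and 177 CPM in replicates 7, 12 and 13 (log2 fold change -1.88, SE 0.18, edgeR adjusted p = 0.0960). The groups did not overlap, but Fert+ replicate 10 held 373 CPM and Fert- replicate 14 held 1274 CPM. In corpus luteum the same ID differed by -0.13 between the 4 and the 3, and they overlapped.

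ENSBTAG00000001740 was at 14.7, 14.05, 14.2 and 18.6 CPM against 32.7, 32.9 and 38.0 CPM in endometrium (log2 fold change -1.16, SE 0.14, edgeR adjusted p = 0.136). Its luteal values went the same way without overlap, at 26.7, 15.7, 14.6 and 18.2 CPM in the 4 and 29.0, 44.9 and 30.5 CPM in the 3. This log2 difference of -0.90 fell short of the size in the rule. At any size, 19.1% of all IDs were lower in the 4 without overlap. The Fert- luteal libraries ran from 24.4 to 47.2 CPM, into the range of the 4. Fert+ endometrium replicate 10 held 9.81 CPM, below each of the endometrium libraries compared. ENSBTAG00000006984 was at 52.1 CPM ± 6.07 (SD, n = 4) against 26.4 CPM ± 1.53 (SD, n = 3) in endometrium (log2 fold change 0.98, SE 0.13, edgeR adjusted p = 0.136), and its luteal difference was -0.15. ENSBTAG00000005162 was at 15.05 CPM ± 2.12 (SD, n = 4) against 5.63 CPM ± 1.80 (SD, n = 3) in endometrium (log2 fold change 1.42, SE 0.25, edgeR adjusted p = 0.156) and had at most 2 counts in any of the 7 luteal libraries. DESeq2 called all 4 of these IDs.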

How the data were processed

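Polyadenylated RNA of 26 libraries was sequenced from TruSeq libraries, which carry no strand mark. Tools in the submitters' processing notes are STAR 2.3.0, featureCounts, Trim Galore, FastQC 0.10.0 and CASAVA 1.9, and the build is UMD3.1. How multiply mapped reads were counted, and with which annotation release, is not given in the sources used here. Thus overlapping, antisense and near-identical genes are uncertain. The authors deposited whole-number read counts for 24616 gene IDs, which were used as they stand.

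Levels are counts as CPM (a library-scaled share) scaled by trimmed mean of M values (TMM) in edgeR 4.0.16 under R 4.3.3. Luteal differences used the 12 luteal libraries after filterByExpr by line, on log2 CPM with a prior count of 2. CPM values set across tissues used all 26 libraries scaled together. The endometrium contrast used edgeR's quasi-likelihood F test (robust, two-sided), with DESeq2 1.42.0 and limma 3.58.1 as alternatives. The SE was taken from the log2 fold change and F. The computations were tested on simulated data. The alternatives were other scalings, filters, prior counts and sizes, and leaving out each library.

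All 21 pairs of the 7 libraries differed by more than counting noise (lowest chi-square over its degrees of freedom 17.4). The IDs named were, per direction, the 2 largest luteal differences with at least 10 CPM in the higher group and the 2 smallest endometrial p-values. The members and lists were chosen with earlier results of these data known. Sequences and gene names were not used here.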

Additional observations from a re-analysis of the deposited data

Results flagged for a closer look

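Libraries far from the others of their group, by Dixon's 95% criterion, are given here. Of 105 groups of values checked, 16 held one, and about 1 in 20 would do so by chance. Among the 4 luteal libraries, replicate 19 had 12702533 total counts, where the next was at 17209398. It also held 9.93 CPM of ENSBTAG00000027962, where the next was at 2.39, and 53.4 CPM of ENSBTAG00000002080, where the next was at 19.5. Fert- luteal replicate 28 had a mean of 3.705 log2 CPM over the 47 lower IDs against 3.22 in the next library, and 388 CPM of ENSBTAG00000000470 against 82.0. Fert- luteal replicate 25 held 3.15 CPM of ENSBTAG00000027962, where the next was at 10.8, and Fert- luteal replicate 17 held 1.04 CPM of ENSBTAG00000005162, where the next was at 0.195.

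In endometrium, Fert+ replicate 1 had 14.2% of its counts in its 10 most abundant IDs, against 10.2% in the next Fert+ library and 8.72% in the next of the libraries matching the 4. Among those libraries, replicate 5 stood apart with 10.02 CPM of ENSBTAG00000027962, 0.605 CPM of ENSBTAG00000000470 and 18.6 CPM of ENSBTAG00000001740. Fert+ endometrium replicate 10 held 28.8 CPM of ENSBTAG00000000470 and 373 CPM of ENSBTAG00000002080, and Fert- endometrium replicate 14 held 33.9 CPM and 1274 CPM of the same IDs.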

How the results depend on the processing

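The luteal counts of 964 higher and 47 lower IDs were 244 and 5 at a log2 difference of at least 2. RLE or upper-quartile scaling gave 948 or 923 higher IDs and 47 or 48 lower ones, and moved the median of all IDs by less than 0.1. With a mean log2 CPM of at least 1 they were 757 and 33, and with a prior count of 0.5 they were 998 and 54. Leaving out each of the 7 libraries gave 907 to 1051 higher and 47 to 87 lower IDs. At least 870 of the 964 and 35 of the 47 were among them each time. With fewer libraries the condition of no overlap is easier to meet. Single libraries compared by size alone gave 1367 higher and 555 lower IDs in batch 3, and 1285 and 546 at parity 4. Scaling all 26 libraries together, chosen after seeing the data, gave 965 and 47. The gap between the 4 and the nearest other Fert+ library was 57.3% of the score range of the first component. It was 64.6% with the 500 most variable IDs, 47.8% with each ID at unit variance, 88.2% in the 7 libraries alone, and 51.1% to 56.9% with each library left out. The 4 had 1074 more IDs with a count than the 3 on average, and 834 more at equal depth. Their surplus in total counts was 2898460 to 4667090 with each library left out (exact permutation p from 0.1 to 0.4). The smallest p this test allows was then 0.1 or 0.133, so it could not fall under 0.05. Without replicate 19 the p was at that smallest value, with each remaining member of the 4 deeper than the 3. In endometrium, 0 IDs were called in edgeR with each library left out; DESeq2 called 488, and 1 was called with no filter on low counts and 1 at an adjusted p under 0.10, in both cases ENSBTAG00000002080. The cause of these differences was not tested. No paired analysis was possible because the library numbers in the titles are not shared between groups. The luteal differences of the 4 IDs named for the luteal split, and the endometrial changes of the 4 named for the endometrium test, kept their sign under the alternatives run. Other values of named IDs were not recomputed. Differences of IDs under about 1 CPM rest on few counts.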
